A study of Rattus norvegicus with 484 samples.

Results

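Rosiglitazone, an agonist of the nuclear receptor PPARG, was given to rats at 10 mkd, the dose unit printed in the labels, and the EDL muscle was sampled on days 4, 5 and 6. These animals gave 9 of the 484 arrays of the series and 9 of its 54 EDL arrays. They were picked by the tissue, compound, dose and day in their titles. The reference was the 36 EDL arrays of the same days from rats given fenofibrate at 50 mkd, bezafibrate at 25 mkd, Wy-14643 (which the labels write with a comma) at 10 mkd or retinoic acid at 2.5 mkd, with 9 arrays per compound and 3 per compound and day. Fenofibrate and bezafibrate are fibrates and Wy-14643 is a PPARA agonist, so the reference rats were treated too. No EDL array of a single vehicle rat was analysed here. Every array set RNA of 1 rat, labelled with Cy5, against RNA of a pool of vehicle rats of that muscle and day, labelled with Cy3. The labels number the rats in the pool at 15 on day 4, 16 on day 5 and 14 on day 6. The question answered was therefore how EDL under low-dose rosiglitazone differed from EDL under 4 other compounds, each at its own dose, and not how it differed from untreated muscle.

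PPARG binds DNA as a partner of a retinoid X receptor and, on binding fatty acids or thiazolidinedione drugs such as rosiglitazone, raises transcription of genes for fatty acid uptake, binding and storage. It is best known as the receptor that drives the formation of fat cells. In skeletal muscle its messenger RNA is scarce, and part of it lies in the capillary wall and in fat cells between the fibres. EDL is a fast-twitch muscle of the lower leg whose fibres are fed through a dense capillary bed.

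Of 18603 features tested with limma, 103 differed between rosiglitazone and the mean of the other compounds at an adjusted p below 0.05, which is 0.554% of them. Of these, 66 were higher (0.355%) and 37 were lower (0.199%). The features comprise 10210 genes and the probes that name no single gene, and the 103 split into 68 named genes (46 higher, 22 lower) and 35 unnamed probes. The differences were mostly small: 78 of the 103 lay under 0.5 log2 units and 4 exceeded 1, with a median standard error of 0.06 over all features. All 103 had the same sign on each of the 3 days. The calls rest on the mean of these days, which favours such agreement, and its share over all features was not counted. In 69, all 9 rosiglitazone arrays lay on the side of the difference relative to the reference mean of their day. Choosing features by a small p favours this too, and its share over all features was not counted either. For 6 features, 4 of them named genes, all 9 rosiglitazone arrays stood above all 36 reference arrays, and no feature stood below them in that way. For comparison, each reference compound was set against the mean of the other 3: fenofibrate, bezafibrate and Wy-14643 each gave 0 calls by limma (1059, 1234 and 1018 features at an unadjusted p under 0.05) and retinoic acid gave 4 (0.0215%). These 4 contrasts were chosen with the data in view. Fenofibrate, bezafibrate and Wy-14643 were each set against a mean that held the others of these fibrates or PPARA agonists. Effects they share would be reduced there, while rosiglitazone had no other thiazolidinedione in its reference. Their counts are therefore not on a like footing with the 103.

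The spread over features ran from 0.783 to 1.54 times the EDL median, and 1 reference array went against its label. On the bezafibrate array of rat 1242 (day 6), 9 slow-fibre genes averaged 2.49 and 11 fast-fibre genes averaged -2.21 log2 units against the EDL pool. Its Myh7, the slow myosin heavy chain, read 3.84 and its Myh4, the fastest one, -3.93. The bezafibrate array of rat 1234 (day 4) had a slow-fibre mean of 0.98, whereas the other 43 arrays lay between -0.48 and 0.41. Without both arrays 108 features passed, 98 of them among the 103, and Rbp7, Gpihbp1, Fabp4 and Mgll, the genes described first, read 3.94, 1.53, 1.34 and 0.72 log2 units. Ratios to a pool of the same muscle carry no levels, so the tissue name itself could not be checked by marker abundance. The 11 genes that define skeletal muscle averaged from -0.35 to -0.16 on the 9 rosiglitazone arrays, and none of them passed.

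Rbp7, a small cytosolic retinol-binding protein found in fat tissue and in capillary endothelium, had by far the largest value. Its ratio to the vehicle pool was 3.21 log2 units on the lowest, 3.83 on the median and 4.56 on the highest rosiglitazone array, against -1.42, -0.06 and 1.31 on the 36 reference arrays. The groups did not overlap, and the gap between them was wider than the whole spread of the rosiglitazone arrays. The difference was 3.88 ± 0.18 log2 units (SE; 95% interval 3.50 to 4.25; adjusted p = 1.6e-16, limma), a 14.7-fold difference. By day it was 3.58, 4.13 and 3.92 on days 4, 5 and 6. Against single compounds it ranged from 3.47 (bezafibrate) to 4.27 (retinoic acid). The array values of Rbp7 and of the 3 other named genes without overlap are plotted by compound and day.

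**Figure D1:**
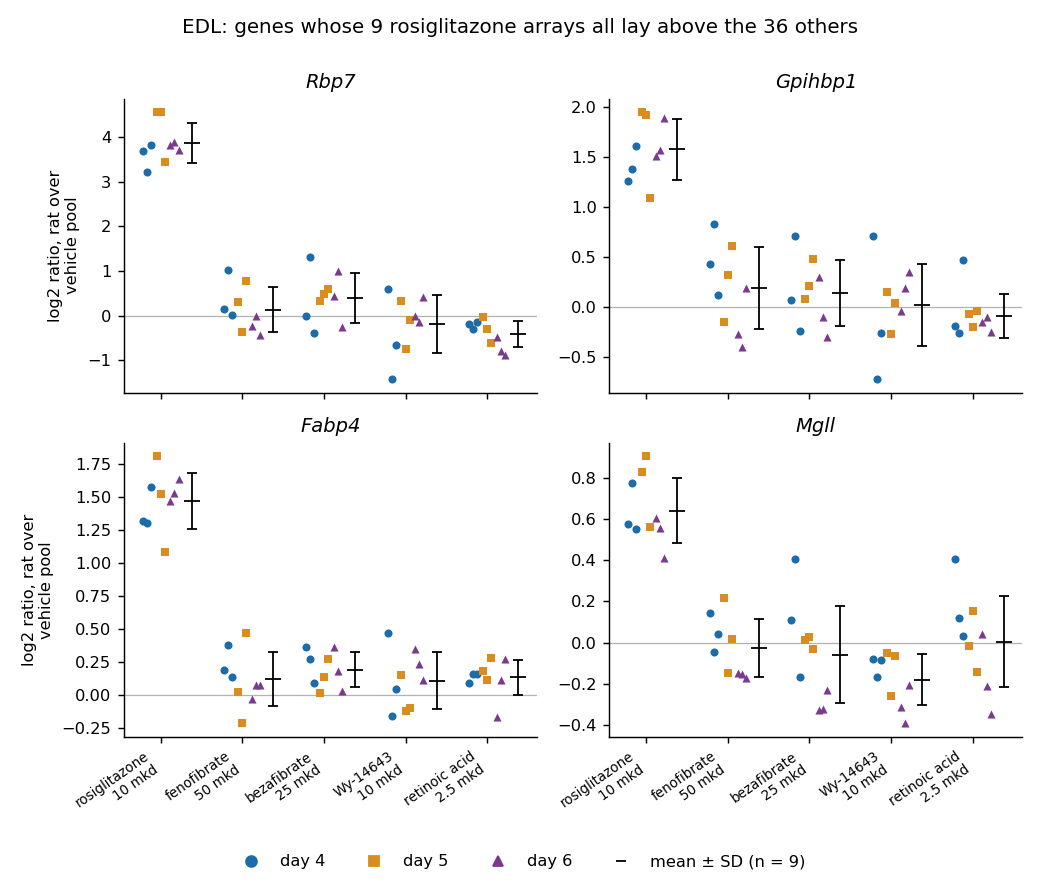
Log2 ratio of each EDL array to its vehicle pool (y axes, which differ between panels) for Rbp7, Gpihbp1, Fabp4 and Mgll under each of 5 compounds (x axes). Points are single rats coloured by day and black marks are the mean ± SD of 9 arrays. In each panel the 9 rosiglitazone arrays lie above the other 36, by the widest gap for Rbp7 and the narrowest for Mgll.

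Some genes that act on fatty acids on their way from blood to cell were higher, and others of that route, given further on, did not pass. Gpihbp1, which holds lipoprotein lipase on the capillary wall, ran from 1.09 through a median of 1.57 to 1.95 on rosiglitazone arrays and from -0.72 through 0.00 to 0.83 on the reference arrays. It was 1.51 ± 0.13 log2 units higher (2.85-fold, adjusted p = 4.2e-10). Fabp4, the fatty acid binding protein of fat cells and capillaries, ran from 1.08 through 1.52 to 1.81, with the reference arrays between -0.22 and 0.47. Its difference of 1.33 ± 0.07 (2.52-fold, adjusted p = 2.7e-15) varied little between reference compounds, from 1.28 to 1.36. Neither gene overlapped between the groups.

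Others on the same route passed with a narrow margin or with overlap. Mgll, the lipase that releases the last fatty acid of a triglyceride, ran from 0.41 through 0.57 to 0.91, against -0.39 to 0.41 in the reference, the lowest rosiglitazone array being just above the highest reference one. It was 0.71 ± 0.05 log2 units higher (1.63-fold, adjusted p = 4.4e-11). Fabp5, a relative of Fabp4, was 0.75 ± 0.13 higher (adjusted p = 0.0018), with 4 of 9 arrays above all 36. Cd36, the fatty acid transporter of muscle and endothelium, was 0.66 ± 0.13 higher (adjusted p = 0.00416). Its rosiglitazone arrays ran from 0.05 through 0.89 to 1.02 and its reference arrays from -0.69 to 0.67, so the groups overlapped. Without day 5 or day 6, with 6 rosiglitazone rats left, neither Fabp5 (0.75 and 0.61, adjusted p = 0.0608 and 0.217) nor Cd36 (0.53 and 0.70, adjusted p = 0.286 and 0.0785) passed. Pparg itself, the receptor, was 0.43 ± 0.06 higher (1.34-fold, adjusted p = 8.6e-06), with 7 of 9 arrays (0.10 to 0.65 over all 9) above all 36 reference arrays (-0.34 to 0.26). Its 3 probes read 0.67, 0.54 and 0.07, the last not past the threshold.

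In the list of 24 measured genes of PPARG action and lipid storage, 6 were higher and 0 lower, while 0.355% of all features were higher. The median difference was 0.16 log2 units against -0.01 over all features. The list was drawn up with earlier results of these data known, so these values are no independent support. The 6 were Rbp7, Gpihbp1, Fabp4, Mgll, Fabp5 and Cd36. Angptl4, a secreted inhibitor of lipoprotein lipase, read 0.46 ± 0.12 and did not pass (adjusted p = 0.0843). It passed at 0.57 (adjusted p = 0.0124) without rosiglitazone rat 1353, its lowest array, and at 0.49 (adjusted p = 0.0306) without bezafibrate rat 1241. Plin2, which coats lipid droplets, read 0.22 ± 0.06 (adjusted p = 0.166), and passed at 0.25 ± 0.05 (adjusted p = 0.0105) without the bezafibrate arrays of rats 1234 and 1242. Lpl, the lipase itself, read -0.11 ± 0.18 and Aqp7, the glycerol channel, 0.21 ± 0.15, neither past the threshold. Slc27a1, a fatty acid transporter, read -0.07 ± 0.06 and Acsl1, which activates fatty acids, -0.03 ± 0.06, and neither passed. Among 18 genes of fatty acid and glycerolipid synthesis, 2 passed and both were higher: Elovl6, which lengthens fatty acids (0.41 ± 0.05, adjusted p = 3.1e-06), and Scd, which desaturates them (0.68 ± 0.15, adjusted p = 0.0145). The Scd arrays ran from -0.27 through 0.52 to 1.92, and the rats differed widely. Scd did not pass without rat 1345, 1348, 1350 or 1354 (adjusted p 0.0553 to 0.0814), and without rat 1354, the highest, it read 0.51. Of the 4 Elovl6 probes 1 read -0.05 and the others 0.39 to 0.84. The 2 Scd probes read 0.08 (adjusted p = 0.573) and 1.27 (adjusted p = 0.0111), so the gene's value is a mean of unlike probes.

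Markers of other cells were read beside these genes. Of 12 listed fat cell markers 8 were measured and 1 passed, Pparg, which is also the drug's receptor. Lep, the fat cell hormone, read -0.02 ± 0.03, Plin1, the droplet coat of fat cells, 0.02 ± 0.04 and Cfd, an adipokine, 0.00 ± 0.28. Thrsp read 0.39 ± 0.17 (adjusted p = 0.441), Acvr1c 0.19 ± 0.18, Retn -0.08 ± 0.04 and Slc7a10 -0.14 ± 0.18. The summed list averaged -0.10 to 0.67 on rosiglitazone arrays and -0.17 to 0.70 on reference arrays. None of 17 macrophage and leukocyte, 17 fibroblast and matrix, 13 hepatocyte, 8 erythroid or 6 nerve and Schwann cell markers passed. Over all features 0.554% passed, and no call in lists this short is near that share.

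Promoter sequences were taken from RefSeq (GRCr8), as windows of 300 bases from 250 before to 50 after the gene start, for 36 of the 46 named genes that were higher and 17 of the 22 that were lower. Gpihbp1, Fabp4, Fabp5, Elovl6 and Cd93 were among those not searched. PPAR and RXR dimers bind a repeat of the half-site AGGTCA with 1 base between the copies, so AGGTCANAGGTCA was searched on both strands. Windows were counted, each by its closest match, and not single matches. The exact motif stood in 0 of the 36 and 0 of the 17 windows, and in 16 of all 27457 windows (0.0583%). With up to 2 mismatches it stood in 2 of the 36 (5.56%), 0 of the 17 and 3.71% of all windows. A single half-site stood in 3 of the 36 (8.33%), 1 of the 17 (5.88%) and 15.7% of all windows. Rbp7 is shown as the gene with the largest difference, and Gys2 and Ceacam1 as both of the higher genes with a match, which is in capitals. The Rbp7 window (chr5:165177350-165177649, minus strand) held no match. In the Gys2 window (chr4:177137187-177137486, minus strand) the match had 1 mismatch and began 80 bases before the start. In the Ceacam1 window (chr1:90187743-90188042, minus strand) it had 2 and began 228 bases before the start. Sequences run 5′ to 3′ on the strand of the gene.
Rbp7: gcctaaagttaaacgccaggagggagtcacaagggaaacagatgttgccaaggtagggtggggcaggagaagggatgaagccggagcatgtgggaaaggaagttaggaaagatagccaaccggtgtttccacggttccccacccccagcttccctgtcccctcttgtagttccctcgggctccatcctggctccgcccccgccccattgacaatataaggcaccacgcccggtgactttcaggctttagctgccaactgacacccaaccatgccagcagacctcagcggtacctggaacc
Gys2: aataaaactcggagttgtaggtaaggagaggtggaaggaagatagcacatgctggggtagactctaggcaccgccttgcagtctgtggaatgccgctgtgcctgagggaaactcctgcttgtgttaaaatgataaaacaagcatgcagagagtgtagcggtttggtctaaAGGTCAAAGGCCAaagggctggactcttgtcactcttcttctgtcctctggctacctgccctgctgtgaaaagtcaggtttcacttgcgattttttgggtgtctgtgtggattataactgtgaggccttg
Ceacam1: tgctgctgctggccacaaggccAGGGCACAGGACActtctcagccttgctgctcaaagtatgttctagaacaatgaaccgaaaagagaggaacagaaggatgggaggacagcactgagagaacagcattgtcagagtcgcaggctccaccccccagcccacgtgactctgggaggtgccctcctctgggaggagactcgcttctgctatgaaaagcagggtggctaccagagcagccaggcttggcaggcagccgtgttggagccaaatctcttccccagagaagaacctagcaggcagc
Gys2, the liver form of glycogen synthase, was 0.37 ± 0.07 log2 units higher (adjusted p = 0.00626), its 3 probes reading -0.02, 0.41 and 0.74. Ceacam1, a cell adhesion receptor, was 0.20 ± 0.04 higher (adjusted p = 0.0121), its 4 probes reading 0.01 to 0.46. Both were chosen here for their sequence after their values were seen. A match describes letters in a window and is no evidence of binding. Sequence outside the windows was not searched, so a window without a match does not show that a gene lacks such a site.

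Genes of blood vessels moved in both directions. Kdr, the main VEGF receptor of endothelium, was higher by 0.61 ± 0.10 log2 units (1.52-fold, adjusted p = 3.5e-04). Its rosiglitazone arrays ran from 0.35 through 0.60 to 0.92 and its reference arrays from -0.61 through 0.02 to 0.65, with 4 of 9 above all 36. Without day 6 it read 0.60 and did not pass (adjusted p = 0.0697). Aqp1, the water channel of capillaries and red cells, was lower by 0.53 ± 0.12 (adjusted p = 0.0154), from -1.20 through -0.66 to -0.32 against -1.08 through -0.19 to 0.57. Its groups overlapped widely, and it did not pass without rat 1346, 1351, 1353 or 1355 (-0.51 to -0.50, adjusted p 0.0542 to 0.073) or without retinoic acid in the reference (-0.45, adjusted p = 0.108). In bulk muscle, fewer cells of a type and less RNA per cell cannot be told apart.

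Podxl, a sialomucin that lines the vessel lumen, ran from -0.63 through -0.44 to -0.21, against -0.38 through 0.04 to 0.48. It was lower by 0.47 ± 0.07 (adjusted p = 1.4e-04), with 5 of 9 arrays below all 36. Emcn, a sialomucin of veins and capillaries, was lower by 0.32 ± 0.07 (adjusted p = 0.0102). It read -0.25 (adjusted p = 0.065) without rat 1352 and -0.28 (adjusted p = 0.0598) without rat 1353. Among single compounds Emcn passed only against retinoic acid (-0.51, adjusted p = 6.4e-04). Without retinoic acid in the reference it read -0.25 and did not pass (adjusted p = 0.21). Cd93 and Clec14a, related lectin-like receptors of endothelium, were lower by 0.44 ± 0.10 (adjusted p = 0.0347) and 0.27 ± 0.05 (adjusted p = 0.00108). Clec14a read -0.25 without day 5 and did not pass (adjusted p = 0.12), and of its 2 probes 1 read -0.43 and the other -0.12 (adjusted p = 0.441). Cd93 did not pass under 12 of 61 alternative settings, which included leaving out any of rats 1345, 1348, 1351, 1352, 1353 and 1355 (-0.43 to -0.37, adjusted p 0.0855 to 0.163). Among single compounds Cd93 too passed only against retinoic acid (-0.72, adjusted p = 0.00279). Without retinoic acid in the reference it read -0.35 (adjusted p = 0.327).

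Of 15 endothelial markers, 2 were higher (Gpihbp1 and Kdr) and 2 lower (Emcn and Aqp1), with a median of 0.00 and 7 of 15 above 0. Over all features 0.355% were higher and 0.199% lower. Gpihbp1 is also in the list of PPARG action and lipid storage, and both lists were drawn up with earlier results known. Cdh5, the cadherin of endothelial junctions, read 0.00 ± 0.08 and Flt1, another VEGF receptor, -0.01 ± 0.04. Tek, the angiopoietin receptor, read 0.02 ± 0.04 and Nos3, endothelial nitric oxide synthase, 0.02 ± 0.06. Pecam1, the junction protein CD31, read -0.26 ± 0.07 and did not pass (adjusted p = 0.0861). The mean over the 15 lay between -0.24 and 0.07 on rosiglitazone arrays and between -0.24 and 0.20 on reference arrays. Tie1, an orphan receptor of endothelium, and Vwf, the clotting factor it stores, read -0.19 ± 0.08 and -0.16 ± 0.08 and did not pass (adjusted p = 0.433 and 0.485). Further genes known from endothelium passed and were picked after their values were seen. Efnb1, a membrane ligand of Eph receptors, was higher by 0.39 ± 0.04 (adjusted p = 1.3e-06), with 1 probe at 0.74 and the other at 0.03 (adjusted p = 0.863). Dll1, a Notch ligand, was higher by 0.46 ± 0.07 (adjusted p = 5.6e-05), and Car4, a carbonic anhydrase on capillaries, by 0.44 ± 0.09 (adjusted p = 0.0102). Gata2, a transcription factor of endothelial and blood-forming cells, was lower by 0.40 ± 0.09 (adjusted p = 0.0154). Gata2 passed against no single compound, and Car4 only against Wy-14643.

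**Figure D2:**
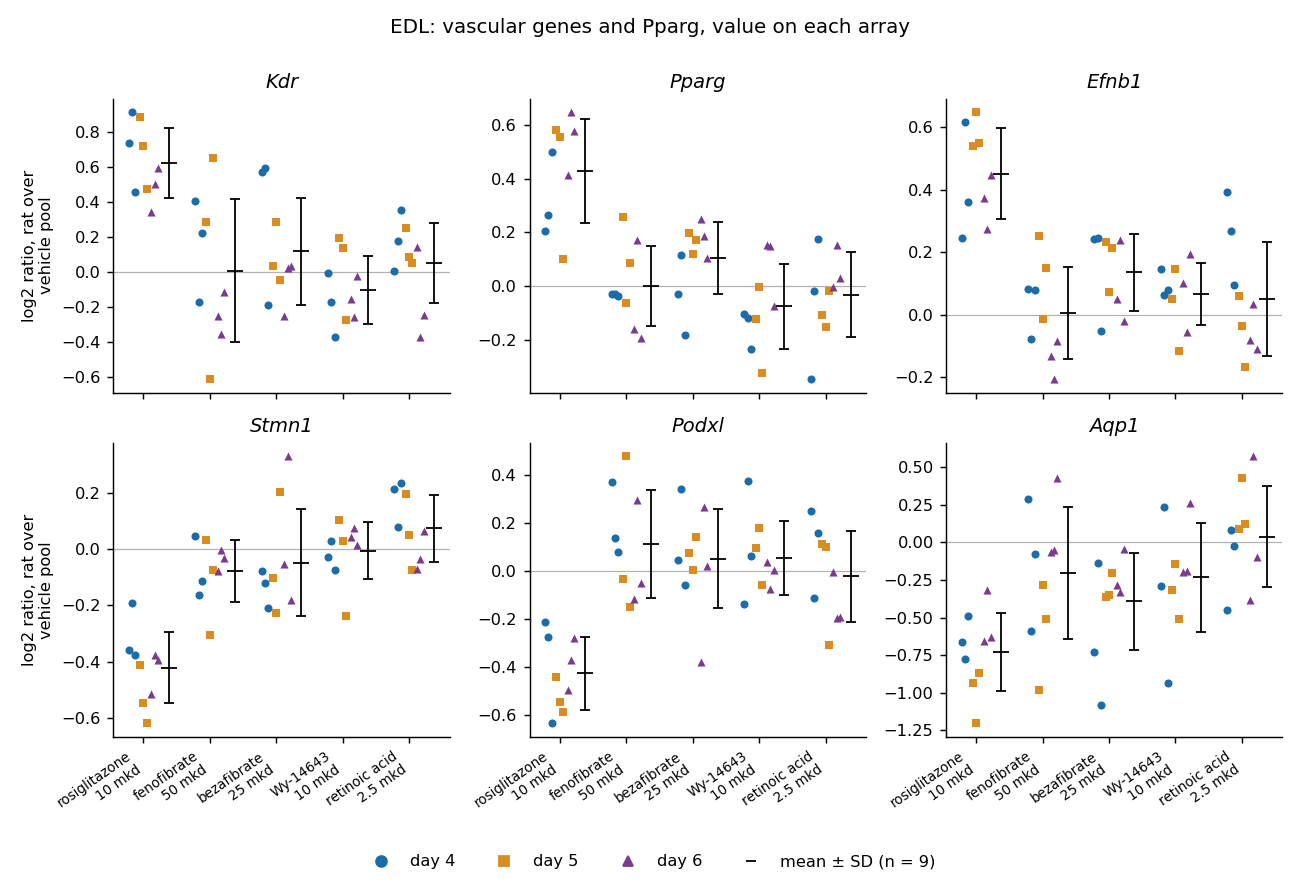
Log2 ratio of each EDL array to its vehicle pool (y axes, which differ between panels) for Kdr, Pparg, Efnb1, Stmn1, Podxl and Aqp1 under each of 5 compounds. Points are single rats coloured by day and black marks are the mean ± SD of 9 arrays. Kdr, Pparg and Efnb1 sit higher and Stmn1, Podxl and Aqp1 lower under rosiglitazone, with overlap in every panel.

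Among the other falls, Stmn1, a protein that takes microtubules apart, came closest to separating the groups. Its rosiglitazone arrays ran from -0.62 through -0.39 to -0.19 and its reference arrays from -0.31 through -0.03 to 0.33. It was lower by 0.41 ± 0.05 (adjusted p = 2.7e-06), with 8 of 9 arrays below all 36. Myo10, the myosin of filopodia, was lower by 0.44 ± 0.07 (adjusted p = 4.9e-04), and Prom1, a protein of membrane protrusions, by 0.40 ± 0.09 (adjusted p = 0.0148). Prom1 did not pass without rat 1346, 1351 or 1353 (-0.38 to -0.36, adjusted p 0.0639 to 0.0896). Gimap5 and Gimap4, small GTPases known from lymphocytes, were lower by 0.44 ± 0.08 (adjusted p = 0.00171) and 0.42 ± 0.08 (adjusted p = 0.00445). Gimap5, Gimap4 and Myo10 did not pass without day 5 (adjusted p = 0.132, 0.12 and 0.0548), and neither Gimap gene did without day 4. The Myo10 probes read -0.62 and -0.26, the latter not past the threshold. Pnlip, pancreatic lipase, was lower by 0.42 ± 0.10 (adjusted p = 0.0423) and did not pass under 34 of 61 settings, 26 of them leaving out a single array (adjusted p 0.05 to 0.199).

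Tmem125, a membrane protein, and Lmo1, a LIM-domain cofactor of transcription, complete the 10 largest rises. Tmem125 was 0.72 ± 0.09 higher (adjusted p = 3.3e-06), with arrays from 0.58 through 0.66 to 1.52. Lmo1 was 0.60 ± 0.07 higher (adjusted p = 1.0e-06), with arrays from 0.57 through 0.73 to 0.97 and 6 of 9 above all 36.

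Cyp26b1, which breaks down retinoic acid, is listed as the largest fall, but this came from 1 reference compound. The 9 retinoic acid arrays read 1.63 to 4.18 log2 units (mean 2.93 ± 0.90, SD), while rosiglitazone averaged 0.01 ± 0.26. Against fenofibrate, bezafibrate and Wy-14643 the difference was -0.04, -0.13 and -0.16, none past the threshold, and without retinoic acid in the reference the gene read -0.11 and did not pass. Nor did it pass without rosiglitazone rat 1346, 1350 or 1351 (-0.79 to -0.77, adjusted p 0.0575 to 0.0648). Of 14 genes of retinoid metabolism and response, Rbp7 was the only one higher and Cyp26b1 the only one lower. Over all features 0.355% were higher and 0.199% lower, and Rbp7 is also in the list of PPARG action. Rarb, a retinoic acid receptor and target, read -0.11 ± 0.06 (adjusted p = 0.547). Rbp7 was lowest under retinoic acid, at -0.41 ± 0.29 (SD).

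**Figure D3:**
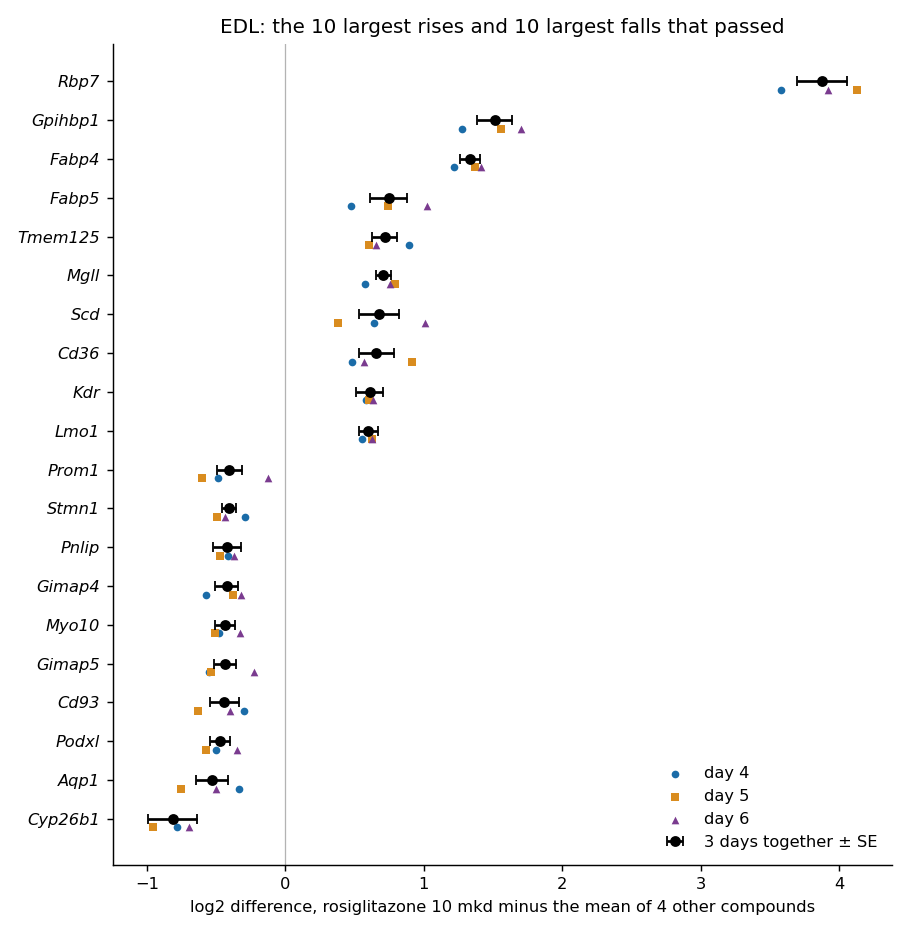
Log2 difference between rosiglitazone at 10 mkd and the mean of the other 4 compounds in EDL (x axis) for the 10 largest rises and 10 largest falls that passed (y axis). Black points are the 3 days together ± SE and coloured points are single days. Rbp7 stands at 3.88 and only Gpihbp1 and Fabp4 otherwise exceed 1. Having the same sign on all 3 days was a condition for being drawn.

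Oxidative and contractile genes showed no passing member. None of 22 genes of mitochondrial beta-oxidation, 17 of peroxisomal beta-oxidation, 15 of fuel switching and uncoupling, 20 of insulin signalling and glucose uptake or 22 of oxidative phosphorylation passed, with medians from -0.09 to 0.07. Over all features 0.554% passed, and no call in lists this short is near that share. Pdk4, the kinase that shuts off pyruvate oxidation, read 0.21 ± 0.16, Ucp3, the muscle uncoupling protein, 0.20 ± 0.14 and Cpt1b, the gate of mitochondrial fatty acid entry, -0.03 ± 0.05. Slc2a4, the insulin-regulated glucose transporter, read 0.09 ± 0.09 and Ppargc1a, a coactivator of mitochondrial genes, 0.07 ± 0.07. The other receptors of the family, Ppara (-0.08 ± 0.06) and Ppard (-0.02 ± 0.03), and the partners Rxra (0.03 ± 0.03) and Rxrg (0.10 ± 0.10) did not pass either. Since 3 of the reference compounds are PPARA agonists or fibrates, a gene raised alike by them and by rosiglitazone would not stand out in this comparison.

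Fabp3, the fatty acid binding protein of muscle fibres, read -0.29 ± 0.13 (adjusted p = 0.471), in contrast to Fabp4 and Fabp5; the difference between these genes was not tested. All 9 slow-fibre genes lay below 0, with a median of -0.22, and none passed. Without the bezafibrate arrays of rats 1234 and 1242 that median was -0.13, and Myh7 moved from -0.29 ± 0.23 to -0.15 ± 0.08. The median of 11 fast-fibre genes was 0.07 and became 0.00. None of 14 clock genes passed, Bmal1 reading 0.18 ± 0.28 and Per1 -0.35 ± 0.14, nor did any of 16 genes of atrophy and stress. In lists this short, no call is near the 0.554% that passed over all features.

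**Figure D4:**
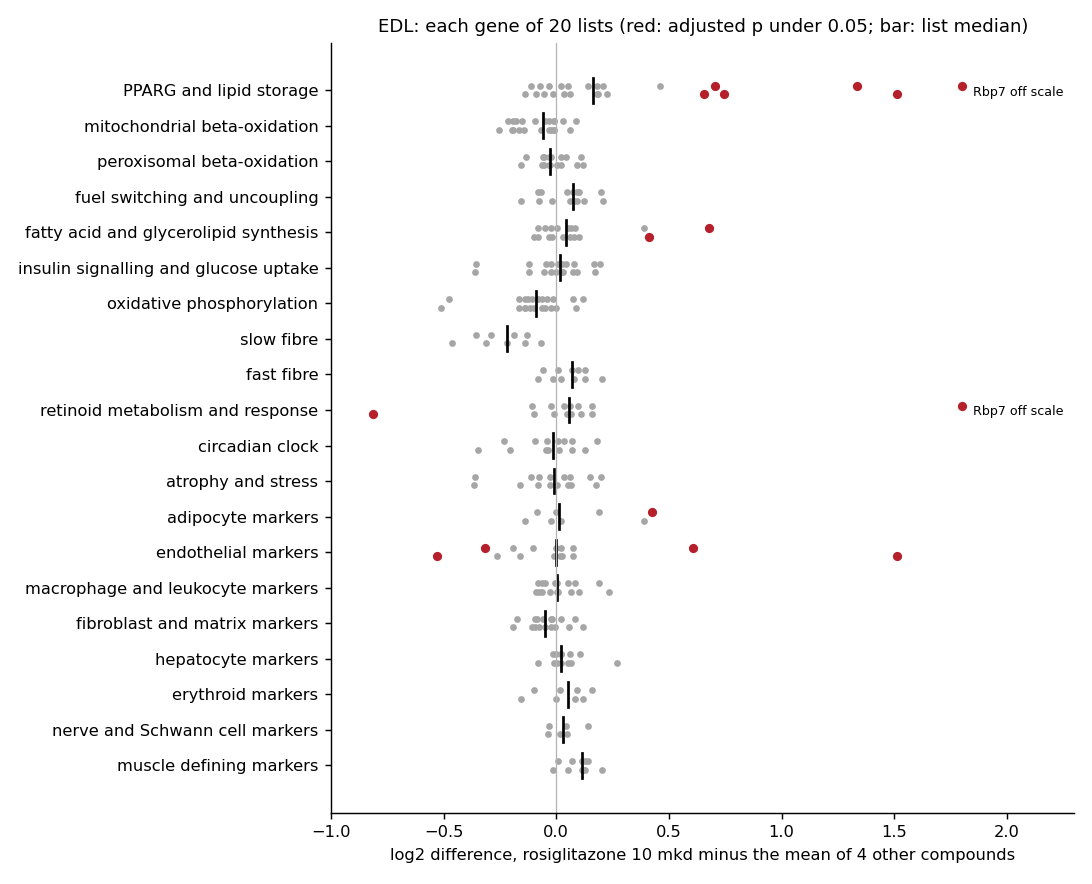
Log2 difference between rosiglitazone at 10 mkd and the mean of the other 4 compounds in EDL (x axis) for every measured gene of 20 lists (y axis). Red points passed an adjusted p of 0.05, grey points did not, and black bars are list medians. Rbp7 (3.88) is drawn short of its value and marked as off scale. Passing genes occur in 5 lists, mainly PPARG and lipid storage (6 of 24) and endothelial markers (4 of 15). Gpihbp1 is counted in both of these, and Rbp7 is also in the retinoid list. The lists were drawn up with earlier results of these data known.

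Against single reference compounds, 67 features passed versus fenofibrate (0.36%), 39 versus bezafibrate (0.21%), 52 versus Wy-14643 (0.28%) and 70 versus retinoic acid (0.376%). These contrasts share the rosiglitazone arrays. Of the 103 features, 28 passed against all 4 compounds, 9 against 3, 17 against 2, 29 against 1 and 20 against none. Rbp7, Gpihbp1, Fabp4, Mgll, Pparg, Elovl6, Podxl and Stmn1 were among the 28. Kdr read 0.62 against fenofibrate, 0.51 against bezafibrate, 0.73 against Wy-14643 and 0.57 against retinoic acid (each ± 0.12), and missed the threshold only against bezafibrate (adjusted p = 0.104). Aqp1 passed only against retinoic acid, at -0.76 ± 0.15 (adjusted p = 0.00474), and read -0.34 against bezafibrate. Fabp5 passed against bezafibrate (0.90) and Wy-14643 (0.98) and read 0.58 against fenofibrate and 0.52 against retinoic acid. The doses of the compounds differ, so these values compare regimens. Rosiglitazone and Wy-14643 were both given at 10 mkd.

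Single days, with 3 rosiglitazone rats each, gave 9 calls on day 4 (0.0484%), 14 on day 5 (0.0753%) and 16 on day 6 (0.086%). A limma F test of the difference between days called 0 features (374 at an unadjusted p under 0.05). The day values of Gpihbp1 were 1.28, 1.55 and 1.70 and those of Fabp5 0.47, 0.74 and 1.02 on days 4, 5 and 6. These orders did not pass that test.

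Measured against the vehicle pool itself, 6899 features (37.1%) differed from a ratio of 0 under rosiglitazone. The same test gave 33.3% for bezafibrate to 41.6% for Wy-14643. All vehicle RNA is in the Cy3 channel and all rat RNA in Cy5, so dye and compound cannot be told apart there, and that contrast was not used to name genes. Rosiglitazone at 100 mkd was given to 4 EDL rats on day 4 only. On that day Rbp7 averaged 3.96 at 100 mkd and 3.58 at 10 mkd, Fabp4 1.44 and 1.40, Mgll 0.95 and 0.63, and Aqp1 -1.25 and -0.64. Scd and Pnlip went the other way, Scd averaging -0.03 at 100 mkd and 0.35 at 10 mkd, and Pnlip 0.22 and -0.16. The doses were not tested against each other.

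The EDL features were then read in soleus, a slow muscle of the calf, and in the muscle the labels call quad, from rats given 100 mkd of rosiglitazone and sampled on days 4 to 6. Single vehicle rats were measured in both, with 12 rosiglitazone and 18 vehicle arrays in soleus and 10 and 41 in quad. Rosiglitazone minus vehicle called 674 features in soleus (3.67%) and 782 in quad (4.25%). Of the 103 EDL features, 100 had the same sign in soleus and 102 in quad. The share of same signs over all features was not counted. They passed with the same sign for 71 in soleus (68.9% of the EDL calls, 10.5% of the soleus calls) and for 80 in quad (77.7% of the EDL calls, 10.2% of the quad calls), and 0 passed with the opposite sign. In all, 62 passed in both muscles and 14 in neither. The labels reuse rat numbers between soleus and quad, so agreement of these muscles is not independent replication. How many rats gave both was not counted. With the other 4 compounds as the reference, at their higher doses, 616 features passed in soleus (3.36%) and 544 in quad (2.96%), which included 69 and 75 of the 103. Arrays of these days were in doubt where their spread was over 3 times the median of the muscle or their hepatocyte markers stood over 2 log2 units above the median of the day: 2 vehicle arrays in soleus, and 2 vehicle, 1 fenofibrate and 1 retinoic acid array in quad. Without them the vehicle contrast called 542 and 1356 features, with 73 and 85 of the 103 among them in the same direction. Dose and muscle differ at once between these comparisons and EDL, so the sizes are set side by side only.

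Rbp7 was 3.24 ± 0.18 log2 units above vehicle in soleus (adjusted p = 1.8e-21) and 3.72 ± 0.22 in quad (adjusted p = 2.7e-23). Gpihbp1 read 1.72 ± 0.10 and 1.84 ± 0.12, Fabp4 1.40 ± 0.09 and 1.27 ± 0.15, and Mgll 1.07 ± 0.07 and 1.06 ± 0.09, all past the threshold. Kdr rose (0.74 ± 0.10 and 1.01 ± 0.11), and Aqp1 (-0.88 ± 0.17 and -1.53 ± 0.11), Podxl (-0.55 ± 0.10 and -0.70 ± 0.11) and Stmn1 (-0.49 ± 0.08 and -0.77 ± 0.09) fell in both muscles. The same 4 endothelial markers that passed in EDL passed in both muscles in the same direction, joined by Pecam1 (-0.26, adjusted p = 0.0185 in soleus, and -0.34, adjusted p = 0.0125 in quad). Some genes of the lists did not pass in EDL and passed in both muscles, among them Angptl4 (1.07 and 0.91), Plin2 (0.55 and 0.75), Aqp7 (0.44 and 0.79) and Lipe, the hormone-sensitive lipase (0.47 and 0.47). In the list of PPARG action and lipid storage, 11 of 23 measured genes were higher in soleus and 10 of 24 in quad, none lower.

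Some EDL calls did not pass against vehicle. Cyp26b1 read -0.02 ± 0.12 in soleus and -0.26 ± 0.16 in quad, and passed in both against the other compounds, which include retinoic acid (-1.14 ± 0.10 and -1.49 ± 0.15). Pnlip read 0.20 ± 0.17 and -0.05 ± 0.11 and passed against neither reference. Lmo1 passed in quad (0.81 ± 0.07) and not in soleus (0.21 ± 0.10, adjusted p = 0.237), though in soleus it passed against the other compounds (0.40 ± 0.08, adjusted p = 7.9e-04). Scd passed in soleus (1.89 ± 0.26) and not in quad (0.85 ± 0.32, adjusted p = 0.127), and Elovl6 likewise in soleus (0.59 ± 0.13) and not in quad (0.37 ± 0.21, adjusted p = 0.414). The difference between the muscles was not tested for these genes. Of the 35 unnamed probes, probe 10011844814 was 1.11 ± 0.08 higher in EDL, with no overlap between the groups, and 1.37 in soleus and 1.19 in quad. Probe 10011869524 was lower by 0.75 ± 0.09 in EDL and read -0.49 and -0.75. Both probes were picked after their values were seen.

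**Figure D5:**
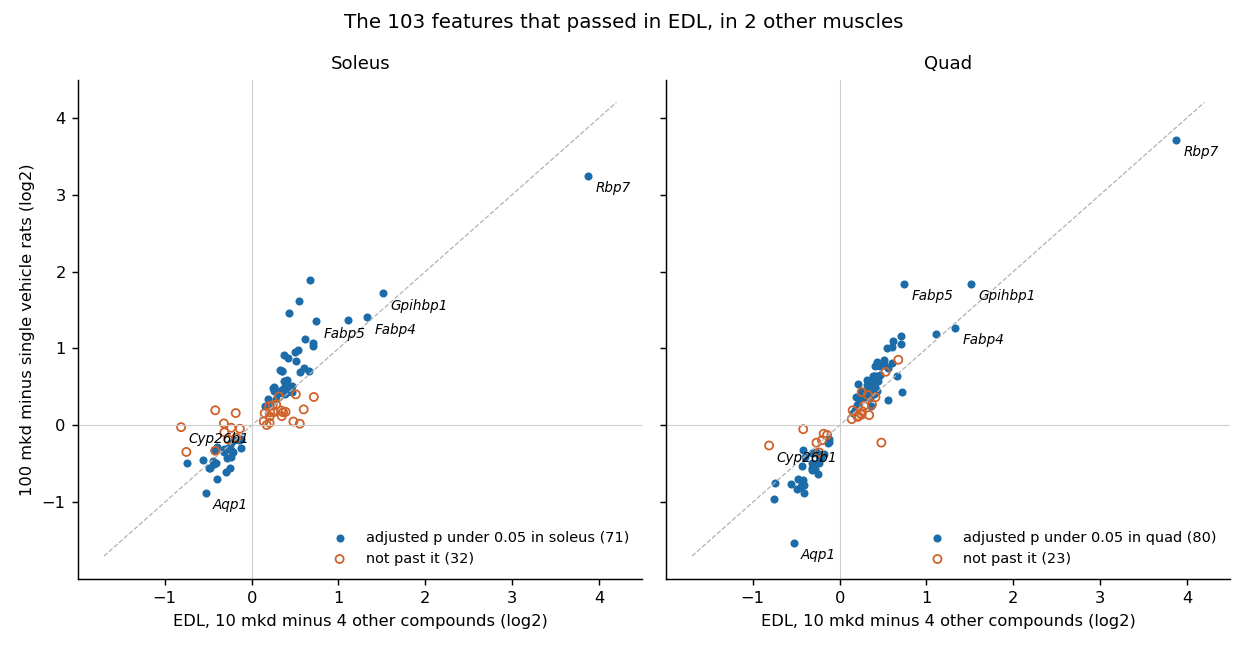
The 103 features that passed in EDL: log2 difference in EDL at 10 mkd against the other 4 compounds (x axes) and log2 difference at 100 mkd against single vehicle rats (y axes) in soleus (left) and quad (right). Filled points passed an adjusted p of 0.05 in that muscle (71 and 80), open points did not, and the dashed line marks equal values. Almost all points have the same sign on both axes, with Cyp26b1 near 0 on the y axes.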

How the data were processed

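Each array compared total RNA of 1 rat (Cy5) with a vehicle pool of the same muscle and day (Cy3), per the labels. The table the authors deposited holds log10 ratios for 23653 probes on 484 arrays. Normalization, scale and direction are not given in the sources used here. Values stop at -2 and 2, which was read as the bound of a log10 scale, and ratios were taken as rat over pool. Retinoic acid arrays reading high for Cyp26b1, a known retinoic acid target, bear on the direction. Values were multiplied by 3.32 to give log2 units, so another base would rescale all differences and leave the tests as they are. EDL had no missing value, and 204 of 1277262 lay at the limit. The number of arrays limits the precision, and intensities were not used here.

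Probes were named from the platform annotation and updated through RefSeq. In this way 15260 probes named 1 gene, 17 several and 8376 none. Probes of a gene were averaged. Of 20 passing genes with more than 1 probe, 5 had probes of both signs (Elovl6, Gpr4, Gys2, Plaur and Slc2a3).

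Each combination of compound and day had its own mean in a linear model of 45 EDL arrays, fitted with limma 3.58.1 in R 4.3.3 (statmod 1.5.0). Rosiglitazone was set against the equally weighted mean of the 4 compounds within each day, and days were averaged. P values are two-sided and adjusted by Benjamini-Hochberg over all 18603 features at 0.05. Intervals are at 95%. Rats carry separate numbers, but nothing says how they were housed or processed, so p values measure the spread between these rats. Soleus and quad were fitted alike, on features with a value on 80% of arrays. The procedure was tested on simulated data. Figures used matplotlib 3.10.9 and pandas 2.3.3 (numpy 2.4.6) in Python 3.11.15.

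Genes named are the 10 largest rises and 10 largest falls that passed and did not change sign between days, at most 4 passing genes of any list, a fixed set of 30 receptors, targets and muscle genes (29 measured), and the first 3 rises and falls against each compound. Members and lists were chosen with earlier results of these data known. Alternatives were array centring and scaling, array weights, filters, single probes, and leaving out each day, compound, array and array in doubt.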

Additional observations from a re-analysis of the deposited data

Results flagged for a closer look

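In the 9 rosiglitazone arrays, the highest or lowest value of a named gene was set against its nearest neighbour and the range (Dixon's test). Of 47 genes tested 4 stood out, and chance flags about 1 in 20 groups. Tmem125 read 1.52 in rat 1346 on day 4, with the next array at 0.94. Scd read 1.92 in rat 1354 on day 6, with the next at 0.75. Angptl4 read -0.74 in rat 1353 on day 6, with the next at 0.10. Rarb, the retinoic acid receptor beta, read 0.37 in the same rat, with the next at 0.07. The cause was not tested.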

How the results depend on the processing

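The 103 calls in EDL became 340 with array quality weights, whose fit stopped before its tolerance was reached, and 54, 44 and 47 without day 4, 5 or 6, when fewer arrays were tested. Leaving out 1 rosiglitazone array gave 66 (without rat 1351) to 103 calls, and leaving out 1 reference array 94 to 113. Every other setting tried kept the count within 1.5 times: 99 with array medians subtracted, 139 with one spread, 110 with single probes, 103 with either filter on missing values, 104 without features at the limit, 78, 127, 90 and 74 without fenofibrate, bezafibrate, Wy-14643 or retinoic acid, 99 without the widest array (bezafibrate rat 1234) and 108 without bezafibrate rats 1234 and 1242. EDL had no missing value, so the filters on missing values could not change the count. With array weights the counts against fenofibrate, bezafibrate, Wy-14643 and retinoic acid became 196, 183, 283 and 287. Without both bezafibrate arrays the count against bezafibrate was 37, 35 of them among the 39. In quad, without the arrays in doubt, the counts became 1095 against the other compounds and 1356 against vehicle. In soleus they were 802 and 542. The causes were not tested. Over 47 named genes and 61 settings (2867 values), 2769 kept their side of the threshold, 90 lost a call, 8 gained one and 0 reversed. This tally includes the filters on missing values, and genes that had not passed and so had no call to lose. Of 24 named genes that passed, 10 kept the call in every setting and 14 lost it without some day. Leaving out each reference array, the widest array and the fibre-marker arrays was chosen after seeing the data. No paired analysis was possible because the 45 EDL arrays carry 45 different rat numbers.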

Other observations

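Further genes passed in EDL that the report does not describe, and those named here were chosen after their values were seen. Adora2a, a receptor for adenosine, was 0.24 ± 0.03 log2 units higher (adjusted p = 1.2e-05, limma), with 9 of 9 rosiglitazone arrays above the reference mean of their day, and read 0.48 in soleus and 0.35 in quad at 100 mkd against vehicle, both past the threshold. Rapgef3, an exchange factor that binds cyclic AMP, was 0.38 ± 0.06 higher (adjusted p = 3.7e-04) and read 0.40 and 0.45. Cx3cl1, the chemokine fractalkine, was 0.40 ± 0.10 higher (adjusted p = 0.0475) and read 0.57 and 0.65. Sema3g, a secreted semaphorin, was 0.21 ± 0.05 higher (adjusted p = 0.0113) and read 0.27 and 0.53. Among single compounds in EDL, Cx3cl1 and Sema3g passed only against retinoic acid (0.64 and 0.33). Tfpi2, an inhibitor of serine proteases, was 0.34 ± 0.07 higher (adjusted p = 0.00425) and read 0.71 and 0.49.

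Lzts1, a leucine zipper protein, was 0.55 ± 0.08 higher in EDL (adjusted p = 2.6e-05) and read 0.33 in quad (adjusted p = 4.6e-05) and 0.02 in soleus (adjusted p = 0.883). Mef2c, a transcription factor of muscle and endothelium, was 0.48 ± 0.11 higher in EDL (adjusted p = 0.032), with 7 of 9 arrays on that side, and read 0.05 in soleus and -0.22 in quad, neither past the threshold. The difference between the muscles was not tested. Ace, the angiotensin-converting enzyme of the vessel wall, was lower by 0.12 ± 0.03 in EDL (adjusted p = 0.0137) and read -0.29 in soleus and -0.18 in quad, both past the threshold. Neither Mef2c nor Ace passed in EDL against any single compound.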
